A study of Mus musculus with 16 samples.

Results

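The genes described here are the chaperones of the Hsp, Dnaj and Cct families in rod photoreceptors of ageing mice. They were chosen by name among the protein-coding genes of the deposited gene table: symbols starting with Hspa, Hspb, Hsp90, Dnaja, Dnajb or Dnajc and a digit, or with Cct and a digit from 2 to 8, together with Hspd1, Hspe1, Hsph1 and Tcp1. The rule used no measured value, but the family was chosen, and Hspa2 and Dnaja2 singled out, with earlier results of these data known. The rule found 81 genes among the 45594 genes of that table. Of these, 64 passed the filter on low counts (at least 5 CPM in 4 or more libraries, where CPM are counts scaled to a common library total) and were tested among 12177 genes. Cct6a, a subunit of the cytosolic chaperonin, is listed in that table as a processed transcript, so the rule leaves it out and its values are given apart.

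Chaperones bind unfolded stretches of protein and release them in cycles of ATP use. Hsp70 proteins take a client from a J-domain protein (the Dnaj families), which sets off ATP hydrolysis, and nucleotide exchange factors such as the Hsp110 proteins let it go. Hsp90 acts on clients that are nearly folded, the mitochondrial pair Hspd1 and Hspe1 and the cytosolic ring of the Cct subunits enclose their clients, and small heat shock proteins hold unfolded protein without ATP. In rods, a cell with a very high rate of membrane protein synthesis, the Cct ring takes part in assembling the beta and gamma subunits of transducin, and Hsp90 with the co-chaperone Aipl1 is needed for the rod phosphodiesterase.

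RNA was sequenced from flow-sorted rods of C57BL/6J mice of the strain labelled Nrlp-GFP, in which the promoter of Nrl, a transcription factor of rods, drives green fluorescent protein. The mice were 3, 12, 18 or 24 months old, written 3M to 24M, each age has 4 libraries and the labels give no other treatment, and all 16 libraries carry the same strain label although the protocol also names reporter mice that lack Nrl. The sort relies on the Nrl promoter, so it collects what that promoter marks, and the sources used here do not say whether a library is 1 mouse or a pool. The design text calls the libraries biological replicates, so p-values measure the spread between such libraries, and in bulk RNA fewer cells of a type and less RNA per cell cannot be told apart.

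The libraries held 20579144 to 28791777 estimated counts. All 14 rod markers were tested, and the lowest of their means over the libraries was 590 CPM. Their summed level was 43690 to 47020 CPM at 3M and 35400 to 42380 at 24M, a difference with an exact two-sided permutation p of 0.0286 (adjusted 0.157 over 11 lists), the smallest p that 4 against 4 libraries allow. The 12 markers of Müller glia summed to 135 to 278 CPM at 3M and 179 to 306 at 24M (exact permutation p = 0.171, adjusted 0.471), and none of the 12 was at 0 in every library. The median log2 difference at 24M against 3M was -0.228 over the 14 rod markers and 0.436 over the 12 markers of Müller glia, against 0.011 for all genes tested. Whether either set of markers plays a part in the chaperone values was not tested. The authors' normalized table lacks 1 library of each later age, replicate 4 of 12M, replicate 3 of 18M and replicate 3 of 24M. The slope of a library's log2 CPM on transcript length, per doubling of length, was -0.029 ± 0.011 at 3M (SD, n = 4). It was -0.081 in 24M replicate 3, -0.047 in 12M replicate 4 and 0.084 in 18M replicate 3, while the other 9 later libraries ran from -0.044 to 0.075, so 12M replicate 4 lay no farther from 3M than several of those. The main results are therefore also given for the 13 other libraries.

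At 24M, 1 chaperone was higher and 3 were lower than at 3M (edgeR's quasi-likelihood test, Benjamini-Hochberg adjusted p under 0.05), against 2.65% of all genes called higher and 1.6% called lower. Hspa2, an Hsp70 known best from male germ cells, rose to 6.56 times its level at 3M, the largest change among the 64. Dnaja2, Dnaja4 and Dnajc7, J-domain partners of Hsp70, fell. At 12M and at 18M, Hspa2 alone was called among the 64, with 0 lower, while 0.977% and 0.411% of all genes were called higher and lower at 12M, and 1.68% and 0.961% at 18M. By unadjusted p under 0.05, edgeR gave 5 chaperones at 12M (9.15% of all genes) and 4 at 18M (12.4%). No chaperone was called between 12M and 18M or between 18M and 24M, where 0.00821% and 0.0% of all genes were called; unadjusted p was under 0.05 for 1 and 5 of them by edgeR (2.23% and 5.58% of all genes), and DESeq2 also called 0 in both.

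**Figure D1:**
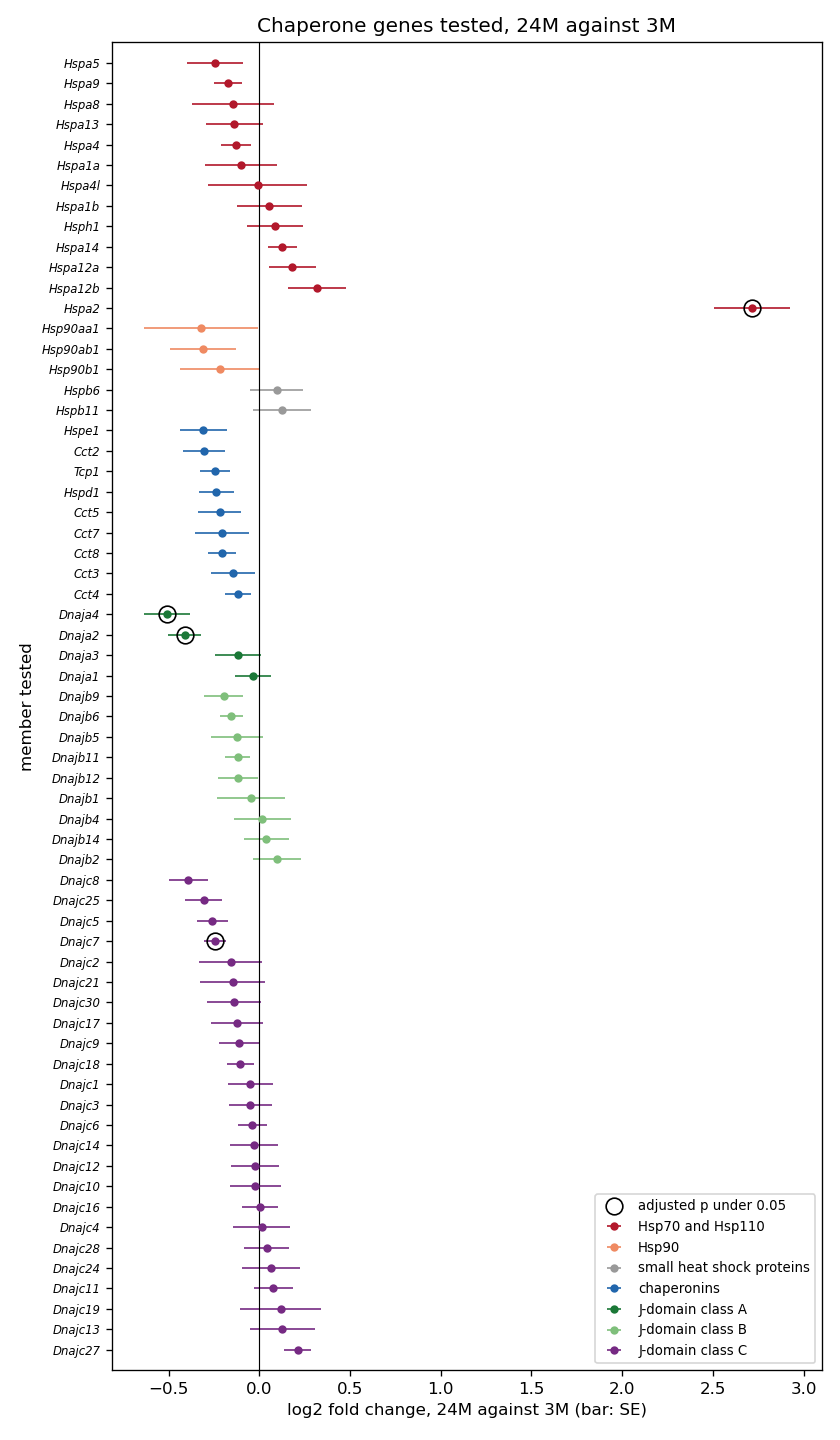
Log2 fold change of each of the 64 chaperones tested, 24M against 3M, on the x axis, with the standard error as a bar and colours for the role groups. Hspa2 stands at 2.71, far right of the other 63, and circles mark the 4 genes with an adjusted p under 0.05.

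Hspa2 (ENSMUSG00000059970) lies at chr12:76404176-76406934 (GRCm38) and has 1 transcript in the deposited table. Hsp70 genes resemble each other, so the ends of their coding sequences are shown to let a reader see what sets Hspa2 apart for a method that assigns reads by sequence. Below are the last 60 coding bases with the stop codon, from GENCODE transcripts of GRCm38, where a capital marks a base that differs from Hspa2 at the same distance from the stop.
Hspa2: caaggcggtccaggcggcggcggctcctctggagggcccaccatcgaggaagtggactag
Hspa1l: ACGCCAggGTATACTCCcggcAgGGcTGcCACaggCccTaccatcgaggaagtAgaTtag
Hspa1a: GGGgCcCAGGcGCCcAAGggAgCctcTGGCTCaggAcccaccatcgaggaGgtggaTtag
Hspa1b: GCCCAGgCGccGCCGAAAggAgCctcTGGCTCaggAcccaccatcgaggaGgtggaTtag
Hspa8: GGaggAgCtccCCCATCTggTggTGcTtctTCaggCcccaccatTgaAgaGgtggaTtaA
The 4 relatives differ from Hspa2 at 27, 25, 26 and 23 of these 60 bases, in the order printed, and the stretch next to the stop is the most alike, where it encodes the shared tail of cytosolic Hsp70 proteins that TPR co-chaperones bind. Over the whole coding sequence, identity to Hspa2 was 74.8% for Hspa1l, 78.3% for Hspa1a, 78.2% for Hspa1b and 73.9% for Hspa8. Of the 31-base words of the Hspa2 transcript, 0.12% also occurred in transcripts of other genes. For the Hspa8 transcript with the most counts that share was 79.7%, mostly with the pseudogene Gm15459. For Hspa1a and Hspa1b, whose coding sequences are 99.43% identical, it was 70.1% and 68.1%. Counts can therefore be split between copies for Hspa8, Hspa1a and Hspa1b, whose single values are uncertain, and hardly for Hspa2.

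Hspa2 stood at 4.45, 5.13, 4.56 and 5.19 CPM in the 4 libraries of 3M. It was at 17.5, 13.0, 13.6 and 25.5 CPM at 12M, and at 26.7, 31.9, 18.8 and 24.5 CPM at 18M. At 24M it was at 31.8, 35.4, 33.5 and 26.3 CPM. All 12 later libraries lay above all 4 libraries of 3M, whereas 12M overlapped 18M and 18M overlapped 24M. Means were 4.83 ± 0.381, 17.4 ± 5.76, 25.5 ± 5.43 and 31.7 ± 3.88 CPM (SD, n = 4), from 112 to 136 estimated counts per library at 3M and 718 to 851 at 24M. Against 3M, the log2 fold change was 1.84 ± 0.21 (SE) at 12M, 2.40 ± 0.21 at 18M and 2.71 ± 0.21 at 24M, with edgeR adjusted p of 9.7e-05, 3.2e-06 and 6.2e-07. The step from 12M to 18M was 0.55 ± 0.19 (edgeR unadjusted p = 0.0118, adjusted p = 1.0), and from 18M to 24M 0.32 ± 0.19 (edgeR unadjusted p = 0.119, adjusted p = 0.929). As a linear term over the 4 ages, the level rose by 1.52 ± 0.17 log2 units per 12 months (edgeR adjusted p = 1.3e-05). The call at 24M held in all 26 alternatives run, with log2 fold changes of 2.27 to 2.87. Over the 13 libraries that the authors kept in that table the log2 fold changes were 1.60 at 12M, 2.52 at 18M and 2.69 at 24M.

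Hspa2 passed the filter through the later ages, since 1 of its 4 libraries at 3M reached 5 CPM, against all 4 at each later age. Of the summed CPM of the 14 Hsp70 and Hsp110 genes it made up 0.374 ± 0.0244% at 3M, and 2.54 ± 0.301% at 24M (mean and SD of 4 libraries). Per kilobase of transcript, it ranked 13th of the 14 at 3M, with 1.91 CPM per kb, and 8th at 24M, with 12.6 CPM per kb. The summed level of the 14 was 1291 ± 47.0 CPM at 3M and 1250 ± 95.4 at 24M, with overlapping libraries.

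**Figure D2:**
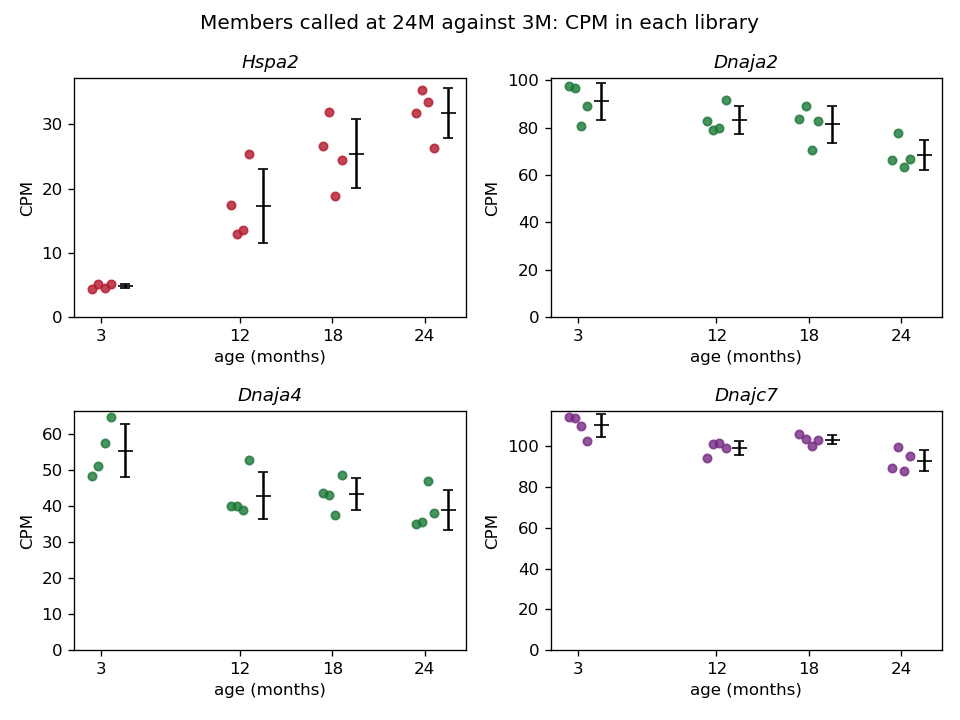
CPM per library against age in months for the 4 chaperones called at 24M against 3M, with mean and SD of the 4 libraries of each age as black bars. The 3M and 24M libraries do not overlap for any of the 4 genes, and Hspa2 at 12M already lies above 3M.

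Among the other 12 Hsp70 and Hsp110 genes tested, none was called at any later age, where 2.65% of all genes were called higher and 1.6% lower at 24M. Hspa8, the constitutive Hsp70 that strips clathrin from vesicles, had the highest level of the group per length, 131 CPM per kb of transcript over the 16 libraries. It was at 284, 302, 294 and 371 CPM at 3M and at 250, 320, 328 and 231 CPM at 24M, overlapping (log2 -0.15 ± 0.23, edgeR adjusted p = 0.871). Hspa8 also spread widely at 12M, from 181 to 393 CPM. Hspa4l, an Hsp110 exchange factor, was next with 63.7 CPM per kb, and 24M replicate 3 stood at 170 CPM while the 3 other libraries of 24M were at 360 to 384. Its mean was 323 ± 76.4 CPM at 3M and 321 ± 101 at 24M (log2 -0.01 ± 0.27, edgeR adjusted p = 0.996). Hspa9, the mitochondrial Hsp70 that pulls proteins through the inner membrane, had 48.2 CPM per kb and was at 155 ± 5.52 CPM at 3M and 138 ± 10.3 at 24M (log2 -0.17 ± 0.08, edgeR adjusted p = 0.331).

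The heat-inducible pair and the chaperone of the endoplasmic reticulum, named here after their values were seen, also overlapped between ages. Hspa1a was at 92.7 to 136 CPM at 3M and at 85.9 to 138 at 24M, and Hspa1b at 55.6 to 78.0 and 56.0 to 80.6 CPM. Their log2 differences at 24M were -0.10 ± 0.20 and 0.05 ± 0.18 (edgeR adjusted p of 0.904 and 0.949). Hspa5, also known as BiP, was at 65.0 ± 9.45 CPM at 3M and 54.8 ± 8.60 at 24M (log2 -0.24 ± 0.16, edgeR adjusted p = 0.555). Hspa12b, a distant Hsp70 relative, reached 5 CPM in only some libraries and was at 5.22 ± 1.07 CPM at 3M and 6.49 ± 0.902 at 24M (log2 0.32 ± 0.16, edgeR adjusted p = 0.406). The values held under Hspa14 are those of Gm45902, the name that the GENCODE annotation gives to both transcripts summed under that identifier. Gm45902 overlaps a separate gene named Hspa14, which shares 6.09% of the words of the main Gm45902 transcript. The entry was at 37.8 ± 1.49 CPM at 3M and 41.2 ± 2.60 at 24M. The counts, sums, ranks and medians given for the Hsp70 and Hsp110 genes include this entry.

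**Figure D3:**
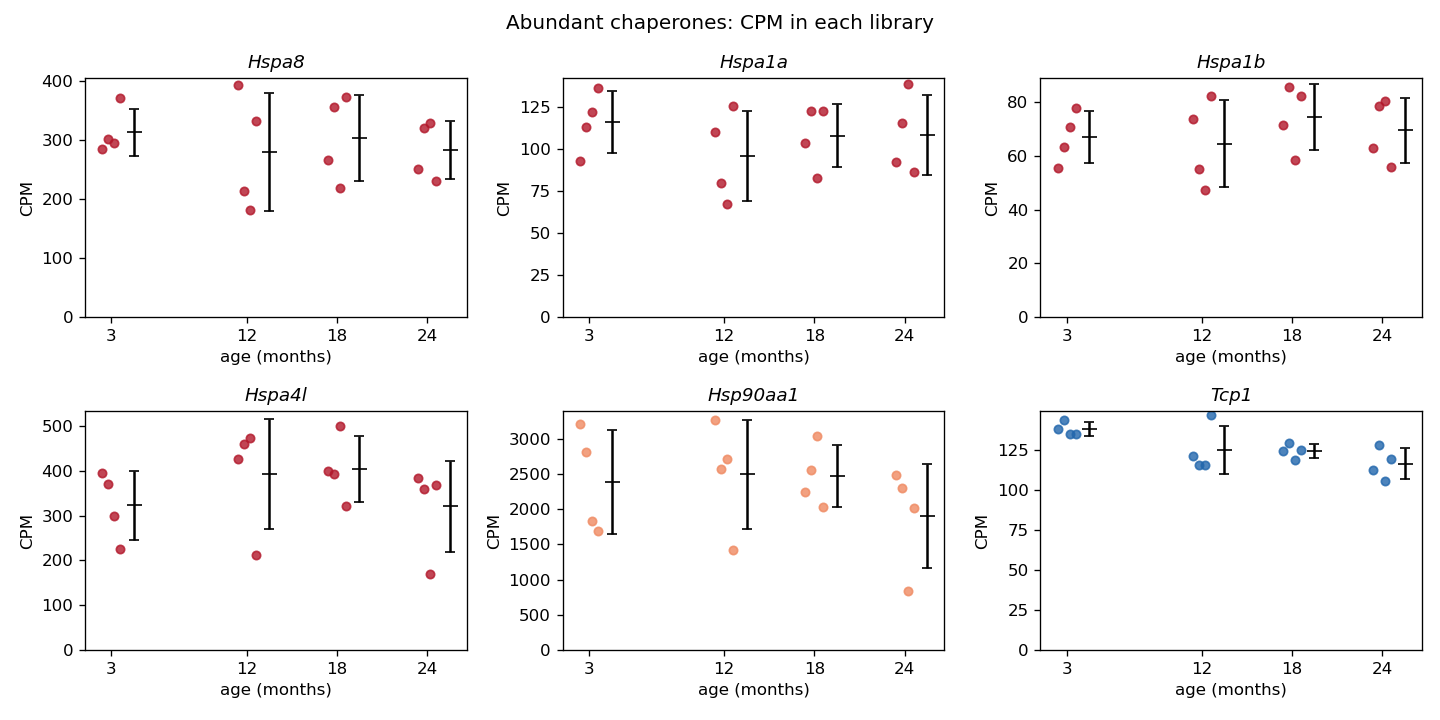
CPM per library against age in months for 6 abundant chaperones, with mean and SD of the 4 libraries of each age as black bars. The 4 ages overlap for Hspa8, Hspa1a, Hspa1b, Hspa4l and Hsp90aa1, with 24M replicate 3 lowest for Hspa4l and Hsp90aa1, while Tcp1 at 24M lies below all libraries of 3M.

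Class A J-domain proteins deliver unfolded clients to cytosolic or mitochondrial Hsp70. At 24M, 2 of the 4 were called lower by edgeR, against 1.6% of all genes. Dnaja2 (ENSMUSG00000031701, chr8:85537640-85555271, GRCm38) is a main partner of Hspa8 in protein refolding. It stood at 97.7, 96.9, 80.8 and 89.1 CPM at 3M and at 82.8, 78.8, 79.8 and 91.6 at 12M. It stood at 83.6, 89.1, 70.6 and 82.7 CPM at 18M and at 66.2, 77.6, 63.3 and 66.9 at 24M. The 24M libraries all lay below the 3M libraries, while those of 12M and 18M overlapped 3M. Means were 91.1 ± 7.90, 83.2 ± 5.79, 81.5 ± 7.79 and 68.5 ± 6.25 CPM (SD, n = 4), and the level at 24M was 1.33 times lower than at 3M. The log2 fold change was -0.13 ± 0.09 at 12M, -0.16 ± 0.09 at 18M and -0.41 ± 0.09 at 24M, with edgeR adjusted p of 0.692, 0.507 and 0.0131. From 18M to 24M it was -0.25 ± 0.09 (edgeR unadjusted p = 0.0145, adjusted p = 0.783). The linear term was -0.21 ± 0.05 per 12 months (edgeR adjusted p = 0.0181), and the test among the 4 ages gave an edgeR adjusted p of 0.0942. Dnaja2 was called at 24M in 24 of 26 alternatives; without 3M replicate 1 its adjusted p was 0.0519 and without 3M replicate 2 it was 0.0568. In the 13 libraries it was -0.38 with an edgeR adjusted p of 0.00375. The gene has 1 transcript in the deposited table, overlaps no other gene and shares 0.0% of its 31-base words.

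Dnaja4, a class A protein whose gene is known to respond to cellular cholesterol, was at 48.4, 51.1, 57.4 and 64.7 CPM at 3M. It was at 35.1, 35.5, 47.0 and 38.0 CPM at 24M, all below 3M, with 24M replicate 3 closest. The log2 fold change was -0.37 ± 0.13 at 12M, -0.36 ± 0.13 at 18M and -0.51 ± 0.13 at 24M, with edgeR adjusted p of 0.267, 0.207 and 0.0297, and the linear term was -0.27 ± 0.07 per 12 months (edgeR adjusted p = 0.0249). The call at 24M held in 18 of 26 alternatives. The 8 in which it was lost were no filter (adjusted p 0.0664), the authors' CPM with either pseudocount (0.0562 and 0.0559) and the fits without the third (0.0835) or the fourth (0.111) library of 3M or without the first (0.11), the second (0.103) or the fourth (0.0868) library of 24M. Dnaja4 is uncertain as a single gene: 52.2% of the 31-base words of its main transcript also occur in transcripts of Wdr61, which overlaps it by 1581 bases on the opposite strand, and although the library kit keeps the strand, no source used here gives the strand setting of the counting. Wdr61 itself was at 18.5 ± 2.72 CPM at 3M and 14.4 ± 1.61 at 24M (log2 -0.35 ± 0.13, edgeR adjusted p = 0.193).

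Dnaja1, a farnesylated partner of Hspa8, showed no such difference, with 54.8 ± 2.34 CPM at 3M and 53.5 ± 5.61 at 24M (log2 -0.03 ± 0.10, edgeR adjusted p = 0.942). Its value is uncertain too, since 90.9% of the 31-base words of its main transcript, the one with the most counts, also occur in other genes. That transcript has 916 bases, whereas the mean length of the Dnaja1 transcripts, weighted by counts, was 2808 bases. The words of its other transcripts were not examined, so the share for the whole gene is not known. The summed level of the 4 class A genes was 238 to 265 CPM at 3M and 197 to 219 at 24M, without overlap. Per kilobase, Dnaja2 had the highest level of the 4, with 27.8 CPM per kb.

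Class B J-domain proteins hold clients back from aggregation or work at membranes. Of the 9 tested, 0 were called at any later age by edgeR, where 2.65% of all genes were called higher and 1.6% lower at 24M. By unadjusted p under 0.05, edgeR gave 1 of the 9 lower at 24M, against 6.7% of all genes. Dnajb6, which keeps polyglutamine proteins from aggregating, had the highest level of the class, 65.8 CPM per kb. It was at 88.0 to 100.1 CPM at 3M and 73.7 to 88.9 at 24M, overlapping (log2 -0.15 ± 0.07, edgeR adjusted p = 0.283). Dnajb2, a J-domain protein enriched in neurons, was at 54.3 ± 6.66 and 58.1 ± 9.13 CPM (log2 0.10 ± 0.13, edgeR adjusted p = 0.845). Dnajb12, anchored in the membrane of the endoplasmic reticulum, was at 65.5 ± 3.81 and 60.4 ± 8.54 CPM (log2 -0.12 ± 0.11, edgeR adjusted p = 0.748).

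Class C holds J-domain proteins of special tasks. Dnajc7 alone was called among the 24 tested, lower at 24M, where 1.6% of all genes were called lower and 2.65% higher. Dnajc7, whose TPR repeats bind both Hsp70 and Hsp90, was at 114, 114, 110 and 102 CPM at 3M and at 89.4, 99.5, 87.8 and 95.2 at 24M. The ages did not overlap, and Dnajc7 had the lowest spread within ages of all 64, a pooled SD of 0.063 on the log2 scale against a median of 0.187. The log2 fold change was -0.15 ± 0.06 at 12M, -0.09 ± 0.06 at 18M and -0.24 ± 0.06 at 24M, with edgeR adjusted p of 0.402, 0.574 and 0.0308. The call held in 16 of 26 alternatives. Among the fits that lost it were the authors' CPM (adjusted p 0.203 with either pseudocount), no filter (0.154), the fit with a replicate block (0.0626) and those without the first (0.0912), the second (0.11) or the third (0.0738) library of 3M or the first (0.112), the third (0.0552) or the fourth (0.0646) of 24M. Dnajc7 overlaps Cnp by 8912 bases and Nkiras2 by 925 bases on the opposite strand, and 16.8% of the words of its main transcript are shared, so reads cannot be assigned to it alone without the strand. Nkiras2 was at 18.9 ± 3.08 CPM at 3M and 16.8 ± 4.42 at 24M, and Cnp stood under 5 CPM.

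Dnajc8, a J-domain protein of the spliceosome, came closest to the threshold among the rest. It was at 80.1, 84.2, 81.9 and 84.5 CPM at 3M and at 57.6, 67.9, 66.1 and 59.9 at 24M, without overlap (log2 -0.39 ± 0.11, edgeR adjusted p = 0.051). At 12M, replicate 4 stood at 87.1 CPM and the other 3 libraries at 58.2 to 62.8. Without 12M replicate 4, the log2 fold change at 12M was -0.44 with an edgeR adjusted p of 0.0029. Over the 13 libraries that the authors normalized, it was -0.42 at 24M with an edgeR adjusted p of 0.00042, in a fit that called 1373 of 12050 genes lower. Across the 26 alternatives, Dnajc8 was called in 6 at 24M and in 3 at 12M. With 1 library left out, its edgeR adjusted p reached 0.166 at 24M and 0.868 at 12M. Dnajc5, cysteine string protein, which guards SNARE proteins on synaptic vesicles, was at 178 ± 10.3 CPM at 3M and 149 ± 13.3 at 24M (log2 -0.26 ± 0.08, edgeR adjusted p = 0.113). The values of Dnajc5 at 12M and 18M were -0.24 and -0.29, so it stood at much the same level at all 3 later ages. In the other direction, Dnajc27, a small GTPase with a J domain that was named after its values were seen, was at 47.5 to 57.5 CPM at 3M and 59.1 to 62.5 at 24M, without overlap (log2 0.21 ± 0.08, edgeR adjusted p = 0.165).

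The 3 Hsp90 genes included the member with the highest level per length and had the widest spread within ages, a median pooled SD of 0.357 on the log2 scale. Hsp90aa1, the inducible cytosolic Hsp90, had 997 CPM per kb, the highest of all members. It was at 3207, 2804, 1826 and 1696 CPM at 3M and at 2478, 2295, 840 and 2012 at 24M, overlapping, with 24M replicate 3 lowest. Its log2 difference was -0.32 ± 0.31 (edgeR adjusted p = 0.758), and its pooled SD of 0.514 on the log2 scale was the highest among the 64. Of the words of its main transcript, 70.8% are shared with other genes, mostly the pseudogene Gm12346. Hsp90ab1, the constitutive form, was at 185 ± 17.3 CPM at 3M and 150 ± 25.5 at 24M (log2 -0.31 ± 0.18, edgeR adjusted p = 0.505). Hsp90b1, the form of the endoplasmic reticulum, was at 236 ± 38.0 and 203 ± 60.4 CPM (log2 -0.22 ± 0.22, edgeR adjusted p = 0.769). Both Hsp90aa1 and Hsp90b1 were lowest at 24M and at 12M in libraries that the authors' normalized table leaves out, 24M replicate 3 and 12M replicate 4. In 18M replicate 3, also left out, both were at their highest for 18M, 3040 and 309 CPM.

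Chaperonins gave negative log2 differences at 24M in 9 of the 9 genes tested, with a median of -0.22, yet none was called by edgeR, and 5 had an unadjusted p under 0.05. Of all genes tested, 47.3% were below 0 with a median of 0.011, 1.6% were called lower and 6.7% were lower with an unadjusted p under 0.05. Tcp1, the first subunit of the cytosolic ring, which folds actin and tubulin, was at 138, 144, 135 and 135 CPM at 3M and at 113, 128, 106 and 119 at 24M. Those ages did not overlap (log2 -0.25 ± 0.08, edgeR adjusted p = 0.135). Cct5 was highest per length, with 89.1 CPM per kb, and went from 160 ± 2.84 CPM to 137 ± 17.9, where 24M replicate 3 stood at 161 and the other 3 at 122 to 142 (log2 -0.22 ± 0.12, edgeR adjusted p = 0.446). Cct4 was at 74.4 ± 5.61 and 68.6 ± 4.29 CPM (log2 -0.12 ± 0.07, edgeR adjusted p = 0.54).

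The 7 ring subunits among the members summed to 640, 656, 633 and 646 CPM at 3M and to 511, 584, 589 and 538 at 24M, without overlap, while 12M replicate 4 stood at 701. Cct6a, outside the rule, was at 94.3 ± 4.31 CPM at 3M and 77.7 ± 4.04 at 24M (log2 -0.28 ± 0.08, edgeR adjusted p = 0.0639). The mitochondrial pair, also named after its values were seen, had log2 differences of -0.24 ± 0.10 for Hspd1 and -0.31 ± 0.13 for Hspe1, with edgeR adjusted p of 0.243 and 0.276. The calls of the ring depend on which libraries are used. Over the 13 libraries that the authors normalized, Tcp1, Cct2, Cct3, Cct5 and Cct7 were called lower at 24M, as was Hspe1. That fit called 1373 of 12050 genes lower.

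Small heat shock proteins were scarce, and 2 of the 8 were tested. Hspb6, a small heat shock protein best known from muscle, was at 49.4 ± 3.23 CPM at 3M and 52.7 ± 12.7 at 24M (log2 0.09 ± 0.15, edgeR adjusted p = 0.872), with 24M replicate 3 at 71.5 and the other 3 libraries at 44.3 to 49.7. Hspb11, better known as a subunit of intraflagellar transport than as a chaperone, was at 7.22 ± 1.69 and 7.89 ± 1.05 CPM (log2 0.12 ± 0.16, edgeR adjusted p = 0.835). Hspb9, a form known from testis, had 136 estimated counts over the 16 libraries, a mean of 0.355 CPM, and Hspb1, the widely induced small heat shock protein, had 19.

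Besides the 6 small heat shock genes, 11 members were under the filter. Hspa1l, the Hsp70 next to the inducible pair, had a mean of 3.12 CPM and Dnajc15 4.42 CPM, and the 9 others (Dnajb3, Dnajb7, Dnajb8, Dnajb13, Dnajc5b, Dnajc5g, Dnajc22, Cct6b and Cct8l1) were at 1.25 CPM or less. Dnajc5g had 0 counts in all 16 libraries.

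**Figure D4:**
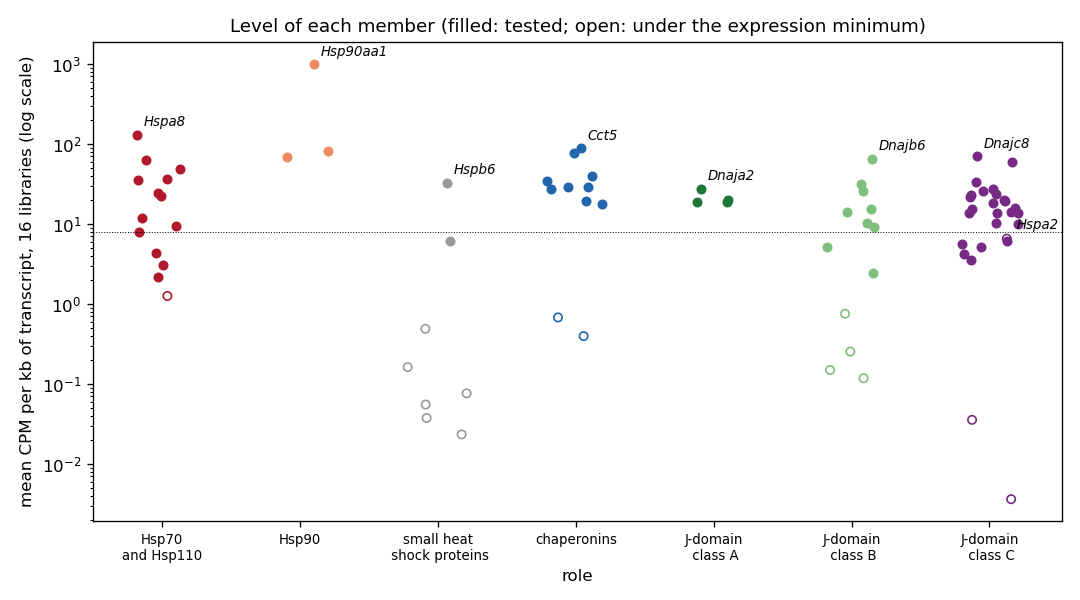
Mean CPM per kilobase of transcript over the 16 libraries, on a log axis, for the members in each role group. Filled points were tested and open points fell under the expression minimum, Dnajc5g at 0 is not drawn, the dotted line marks the 7.87 CPM per kb of Hspa2, and Hsp90aa1 is highest at 997.

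Across the 64 genes the median log2 difference from 3M was -0.069 at 12M, -0.064 at 18M and -0.117 at 24M, against -0.003, 0.007 and 0.011 for all genes tested. At 24M, 45 of the 64 (70.3%) were below 0, against 47.3% of all genes, and 13 (20.3%) were lower with an unadjusted p under 0.05, against 6.7% of all genes. The 2 others under that p, Hspa2 and Dnajc27, were higher, against 7.31% of all genes. The libraries of 3M and 24M did not overlap for 2 chaperones that were higher at 24M (5.28% of all genes) and 10 that were lower (5.32% of all genes). Those 10 were Dnaja2, Dnaja4, Dnajb11, Dnajc7, Dnajc8, Dnajc25, Tcp1, Cct2, Cct8 and Hspe1. By role, the median at 24M was -0.01 for the 13 Hsp70 and Hsp110 genes, -0.31 for Hsp90, -0.26 for class A, -0.12 for class B, -0.04 for class C and 0.11 for the 2 small heat shock genes. In the test of any difference among the 4 ages, Hspa2 alone was called, against 2.82% of all genes. The linear term in age called Hspa2 higher (2.84% of all genes) and Dnaja2 and Dnaja4 lower (1.95%).

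**Figure D5:**
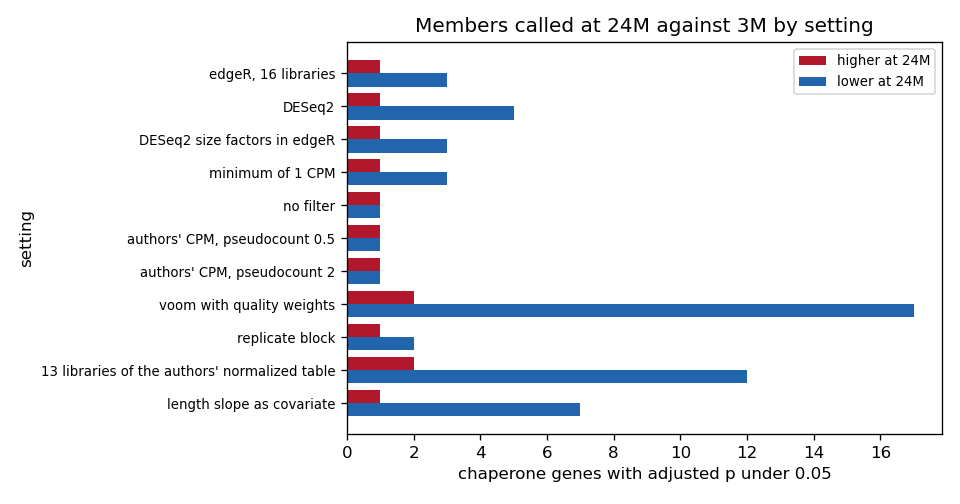
Number of chaperones with an adjusted p under 0.05 at 24M against 3M under each way of processing, in red for higher and in blue for lower. The count of higher genes is 1 or 2 throughout, while the count of lower genes goes from 1 with no filter or the authors' CPM to 17 with quality weights.

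The number of chaperones called lower at 24M moved between these fits. It was 3 over all 16 libraries, where 195 of 12177 genes tested were called lower. It was 12 over the 13 that the authors normalized (1373 of 12050 genes lower) and 17 with quality weights (1657 of 12177 genes lower). With the transcript-length slope of each library in the fit it was 7 (643 of 12177 genes lower). Dnaja2 was called lower in all 4 of these fits, with log2 differences of -0.41, -0.38, -0.38 and -0.38 in that order.

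In the authors' deposited table, 64 members have a test among the 4 ages and 13 of them an adjusted p under 0.05, against 26.7% of its 11826 genes. The authors' deposited table gives Hspa2 log2 differences from 3M of 1.59, 2.51 and 2.67 at 12M, 18M and 24M, with an adjusted p of 8.1e-08. For Dnaja2 the authors' deposited table gives -0.17, -0.10 and -0.38 (adjusted p = 0.0207), and for Dnaja4 -0.45, -0.23 and -0.59 (adjusted p = 0.0043). Dnajc7 has an adjusted p of 0.346 in the authors' deposited table. Of the chaperonins, the authors' deposited table puts Cct5, Cct3, Cct2 and Cct7 under 0.05 and Tcp1 at 0.0927. The rest under 0.05 went both ways at 24M. Dnajc8 (log2 -0.43, adjusted p = 0.0015), Dnajc5 (-0.32, 0.0044) and Dnajb12 (-0.18, 0.022) were lower than at 3M. Hspa4l (0.26, 0.0204), Dnajc13 (0.35, 0.0407) and Dnajc10 (0.18, 0.047) were higher.

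The partners of these chaperones were looked at through a list of 55 co-chaperones and heat shock factors, of which 47 were tested, and the list was chosen with earlier results of these data known. At 24M, 0 were higher and 3 were lower by edgeR, against 2.65% and 1.6% of all genes, with a median of -0.071 against 0.011 for all genes. St13, which stabilises Hsp70 bound to ADP, fell from 131 ± 5.74 to 103 ± 9.32 CPM (log2 -0.34 ± 0.08, edgeR adjusted p = 0.0278). Sgtb, a TPR co-chaperone of Hsp70 found in neurons, fell from 48.0 ± 5.27 to 34.1 ± 4.61 CPM (log2 -0.50 ± 0.11, edgeR adjusted p = 0.0134). Pfdn4, a subunit of prefoldin, which hands clients to the Cct ring, fell from 17.0 ± 1.11 to 13.1 ± 1.15 CPM (log2 -0.38 ± 0.10, edgeR adjusted p = 0.0467), and at 18M it was at -0.44 with an edgeR adjusted p of 0.0272. Aipl1 had the highest CPM of the list, 596 ± 19.6 CPM at 3M and 474 ± 88.7 at 24M (log2 -0.33 ± 0.12, edgeR adjusted p = 0.192). Sec63, a J-domain protein of the translocon, was next by the mean over all 16 libraries, 139 CPM, with 125 ± 11.8 at 3M and 135 ± 37.6 at 24M (log2 0.11 ± 0.19, edgeR adjusted p = 0.886).

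Heat shock factor 1 is the transcription factor that turns on chaperone genes under protein stress, and it binds repeats of GAA and its reverse complement TTC. In the 250 bases before the RefSeq starts (GRCm38.p6), 19 of the 85 windows of members (22.4%) held GAANNTTC or TTCNNGAA, both strands being covered because each motif reads the same on both, and 12.8% of 32851 windows of all genes held either. These windows belong to 17 of the 66 members that have one, and some share bases, as those of Hspd1 and Hspe1 do. The 3-unit forms GAANNTTCNNGAA and TTCNNGAANNTTC, which contain the 2-unit ones, were in 0.47% of all windows and in those of Dnajb6, Hspd1 and Hspe1. Of the 4 genes called at 24M, Dnaja4 held the 2-unit form at 2 places in 1 of its 2 windows, and the windows of Hspa2, Dnaja2 and Dnajc7 held none of these letters. Stretches of 30 bases from 5 members are shown, on the strand of the gene, because they carry the matches of the textbook heat shock genes, with the matched letters in capitals.
Hspe1, chr1:55088053-55088082, plus strand: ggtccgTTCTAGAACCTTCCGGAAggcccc
Hspa1a, chr17:34972242-34972271, minus strand: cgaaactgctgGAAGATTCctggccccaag
Hspa1b, chr17:34959324-34959353, minus strand: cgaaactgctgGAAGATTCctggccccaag
Hspb1, chr5:135887801-135887830, plus strand: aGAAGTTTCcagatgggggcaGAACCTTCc
Hsph1, chr5:149636351-149636380, minus strand: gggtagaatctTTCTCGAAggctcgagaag
The stretches of Hspa1a and Hspa1b were identical letter for letter. Of 18 genes known to be induced by heat shock factor 1, 11 of them members here, 13 were tested. At 24M, 0 were called by edgeR, against 2.65% of all genes called higher and 1.6% lower, so 0 of 13 is near those shares. Their median log2 difference was -0.119, against 0.011 for all genes. Hsf1 itself was at 37.0 ± 3.15 CPM at 3M and 43.6 ± 8.05 at 24M (log2 0.24 ± 0.11, edgeR adjusted p = 0.342). Tissue dissociation can induce heat shock and immediate early genes. The 20 immediate early genes listed had a summed level of 466 to 565 CPM at 3M, 252 to 631 at 12M, 376 to 744 at 18M and 388 to 814 at 24M. Of the 13 tested, 0 were called at 24M by edgeR, again near the shares of all genes (2.65% higher and 1.6% lower). The sums at 3M and 24M had an exact permutation p of 0.971, and the part of dissociation in the chaperone values was not tested.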

How the data were processed

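The 16 libraries were grouped by the age in their labels. The authors deposited estimated counts per transcript, a gene table of CPM signal, a normalized CPM signal of 11826 genes in 13 libraries and a table of comparisons with log2 differences, an F score and p-values, per the file headers. The submitters' processing notes list the build GRCm38.p4 and the tools limma 3.32.2, edgeR 3.13.9 and kallisto 0.42.5. Transcripts were matched by identifier to GENCODE genes of GRCm38 (111896 of 113468; unmatched ones held 0.73% to 1.08% of counts), summed and rounded. The sources used here do not say how the authors summed transcripts to genes, and 22 of 81 members gave their CPM within 1% in every library.

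The filter kept genes that reached 5 CPM in 4 or more libraries, and the test was the quasi-likelihood fit of edgeR 4.0.16 (R 4.3.3, TMM factors, 1 mean per age over all 16 libraries, Benjamini-Hochberg adjustment over 12177 genes). CPM values use TMM factors. The common biological coefficient of variation was 0.169. The scripts were tested on simulated data. No pair of libraries agreed within sampling noise, since chi-square per degree of freedom was 8.99 or more. Sums of marker lists were compared with exact permutation tests.

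The members and the gene lists were chosen with earlier results of these data known. Named with values were Hspa2, Dnaja2, members called in any test, the 3 highest per length in each role group, tested members with a fold change of at least 1.5 and an unadjusted p under 0.05, and, of the co-chaperones, those called at 24M and the 2 of highest level. Hspa1a, Hspa1b, Hspa5, Hspa12b, Hspa14, Hspd1, Hspe1, Hspa1l, Dnajc10, Dnajc13, Dnajc15, Hspb1, Dnajc27, Cct6a, Hsf1, Wdr61, Nkiras2 and Cnp, and members listed by symbol alone, were named after their values were seen. Promoter stretches come from RefSeq (GRCm38.p6), where 66 of 81 members matched. Alternatives were DESeq2 1.42.0, its size factors, a minimum of 1 CPM, no filter, limma 3.58.1 on log2 of the authors' CPM with pseudocounts of 0.5 and 2, voom with quality weights, a replicate block, the 13 libraries, a length slope and each library left out.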

Additional observations from a re-analysis of the deposited data

Results flagged for a closer look

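In 7 of 88 groups of 4 libraries examined among the named chaperones, 1 library stood so far from its nearest neighbour that the gap took up most of the range of the group (above Dixon's critical value), where chance gives about 1 in 20. 12M replicate 4 was high for Dnajc8 (87.1 CPM, others 58.2 to 62.8), Dnaja4 (52.7 CPM, others 39.0 to 40.0) and Dnajb12 (67.8 CPM, others 51.1 to 53.6). In 24M replicate 3, Hspa4l was low at 170 CPM (others 360 to 384) and Hspb9 high at 0.629 CPM (others 0.272 to 0.295, all from few counts). Dnaja1 stood at 69.3 CPM in 12M replicate 1 (others 51.9 to 53.4) and at 51.3 CPM in 3M replicate 3 (others 55.6 to 56.5). No library of Hspa2 or Dnaja2 stood apart by this measure at any age.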

How the results depend on the processing

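Of the counts of called chaperones under the 26 alternatives, 289 were equal to the value given (0 against 0 included) or within 1.5 times it, and 49 moved. Counts of all genes called in the same direction follow in brackets. At 24M against 3M, the count called lower was 5 with DESeq2 (338 of 12177), 1 with no filter (222 of 33433) and 1 with the authors' CPM at either pseudocount (191 and 192 of 12141). It was 17 with quality weights (1657 of 12177), 12 in the 13 libraries (1373 of 12050), 7 with the length slope (643 of 12177) and 1 to 5 with 1 library left out. The count called higher was 2 with quality weights (1654 of 12177) and 2 in the 13 libraries (1470 of 12050). At 12M, 10 were higher and 26 lower with quality weights (2878 and 2949 of 12177), and 7 and 18 in the 13 libraries (2354 and 2269 of 12050). With 1 library left out, 0 to 2 were lower at 12M, the 2 (Dnaja4 and Dnajc8) without 12M replicate 4. At 18M, 1 was lower with DESeq2 (198 of 12177), 2 with quality weights (458 of 12177), 1 in the 13 libraries (261 of 12050) and 1 with the length slope (243 of 12177). With 1 library left out, 0 to 1 were lower at 18M, the 1 being Dnajc5 without 24M replicate 3. Between 12M and 18M, 12 were higher with quality weights (970 of 12177) and 1, Hspa2, in the 13 libraries (171 of 12050). Between 18M and 24M, 2 were lower with quality weights (252 of 12177). Among the 4 ages, 5 were called with DESeq2 (5.46% of all genes) and 28 with quality weights (44.6% of all genes). In the 13 libraries 16 were called (3492 of 12050 genes), with the length slope 3 (7.23% of all genes) and with 1 library left out 1 to 3. For the linear term, 7 were lower with DESeq2 (350 of 12177), 1 with no filter (271 of 33433) and 1 with the authors' CPM at either pseudocount (219 and 223 of 12141). The count was 4 with quality weights (477 of 12177), 4 in the 13 libraries (457 of 12050), 6 with the length slope (509 of 12177) and 0 to 3 with 1 library left out. With the length slope 2 were higher (659 of 12177). The cause of these moves was not tested.

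The replicate number as a block gave 1 chaperone higher and 2 lower at 24M, losing Dnajc7. Correlations between same-numbered libraries, with the age means removed, ran from -0.744 to 0.726. They also carry traits of single libraries, so they cannot show whether the numbers pair the libraries. No value of a named chaperone that was called changed sign. The median at 24M ranged from -0.135 to -0.074 over the alternatives. Depth limits the scarce members most: Hspa2 at 3M rests on 112 to 136 estimated counts per library, and the 17 untested members on 0 to 1708 over all 16 libraries. Numbers of calls also move with the share of all genes called, 1.78% with no filter and 27.2% with quality weights at 24M, so a count is to be read beside its own share.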
